A study of Mus musculus with 15 samples.

Results

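The acyl-CoA thioesterases of the Acot family were examined in mouse adipose tissue. The members are the 10 genes Acot1, Acot2, Acot3, Acot4, Acot7, Acot8, Acot9, Acot11, Acot12 and Acot13, taken as the rows of the count table whose Ensembl identifiers carry these symbols. All 10 of 10 were found among 37991 identifiers, and each had counts. Polyadenylated RNA was sequenced from 15 libraries in 4 groups, all on the C57BL/6 background. Brown adipose tissue at postnatal day 0.5 gave 4 wild-type libraries and 4 labelled IL-33-/-, a deletion of the cytokine interleukin 33. Inguinal white adipose tissue at postnatal day 24 gave 4 wild-type libraries and 3 labelled IL-33-/-, which carry the numbers 2 to 4. Tissue and age differed together between the depots and cannot be told apart. The series title names IL-33, its receptor ST2 and uncoupled respiration, the heat-producing process of brown and beige adipocytes. The labels do not tie the libraries to separate animals. The p-values therefore cover the spread among the sequenced libraries alone, and part of it may be technical.

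Acyl-CoA thioesterases split fatty acyl-CoA into free fatty acid and coenzyme A (CoA), in the cytosol, the mitochondria or the peroxisomes. They thereby set the balance between activated fatty acids, which can be oxidised or esterified, and free acids, which can leave the compartment or act as signals. The members belong to 2 unrelated structural types: Acot1 to Acot4 have an alpha/beta-hydrolase fold and sit side by side in a gene cluster with Acot5 and Acot6, and the other members have hotdog folds. Acot11, also called Them1 or brown fat-inducible thioesterase, carries a lipid-binding START domain, is known for its induction in brown fat by cold, and limits heat production there. Acot12, the cytosolic acetyl-CoA hydrolase, has the same layout and is best known from liver.

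Il33 served as the check of the labels. It was lower in the labelled knockouts of inguinal tissue, at 0.346, 0.471 and 0.0791 counts-per-million units (CPM) against 3.45 to 4.61 CPM in wild type, which is -3.73 in log2 (edgeR adjusted p = 1.25e-05). In brown tissue its change of -1.08 did not pass (edgeR adjusted p = 0.229), and labelled knockout libraries 1 to 4 held 0.413, 1.75, 1.41 and 0.594 CPM against a wild-type range of 1.73 to 3.21 CPM, so that library 2 lay inside that range. The brown group is therefore called "labelled knockout" throughout. Library totals ran from 26059635 to 53923009 counts. The summed brown adipocyte markers reached 6184 to 10390 CPM in wild-type brown and 1587 to 2384 CPM in wild-type inguinal tissue, and the summed white adipocyte markers 12430 to 15460 CPM and 26830 to 28890 CPM, in the order the depot labels give. Skeletal muscle markers summed to 2575 to 4541 CPM over the brown libraries and to 104.4 to 505.3 CPM over the inguinal ones.

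Promoter windows are shown for Acot11 and Acot12, the members with the widest changes between groups. They are RefSeq entries of the mouse build GRCm38.p6, running from 250 bases before to 50 after an annotated start. The table held a window for 9 of the 10 members, and Acot11 had 2. Capitals mark a CACGTG E-box. The Acot11 windows lie on the minus strand of chromosome 4, at chr4:106804958-106805257 and chr4:106799782-106800081, and the Acot12 window on the plus strand of chromosome 13, at chr13:91741271-91741570.
Acot11, upstream start: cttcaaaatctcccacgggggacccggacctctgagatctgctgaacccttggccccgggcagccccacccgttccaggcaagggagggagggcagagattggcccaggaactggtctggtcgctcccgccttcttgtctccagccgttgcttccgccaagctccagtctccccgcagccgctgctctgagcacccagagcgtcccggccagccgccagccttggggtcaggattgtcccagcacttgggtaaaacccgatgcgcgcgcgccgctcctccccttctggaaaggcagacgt
Acot11, downstream start: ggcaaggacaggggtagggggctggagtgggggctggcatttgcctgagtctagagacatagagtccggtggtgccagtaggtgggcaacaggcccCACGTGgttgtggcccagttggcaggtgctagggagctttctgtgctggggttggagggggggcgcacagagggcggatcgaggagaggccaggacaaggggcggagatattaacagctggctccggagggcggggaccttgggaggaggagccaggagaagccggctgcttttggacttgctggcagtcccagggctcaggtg
Acot12: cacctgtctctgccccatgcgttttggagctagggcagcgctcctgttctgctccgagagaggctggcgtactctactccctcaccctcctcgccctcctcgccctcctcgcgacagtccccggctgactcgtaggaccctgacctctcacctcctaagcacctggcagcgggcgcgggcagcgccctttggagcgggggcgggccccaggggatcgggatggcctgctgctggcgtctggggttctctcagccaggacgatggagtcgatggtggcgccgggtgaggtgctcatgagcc
A direct repeat bound by nuclear receptors, the hexamer AGGTCA given 2 times with 1 free base between the copies, was searched on both strands and found in none of the members' windows. The looser form with AGGNCA in place of each hexamer, which includes the strict one, was not found either. Those patterns occur in 0.0396% and 0.381% of the 32851 mouse windows in the table. The palindrome CACGTG was found 154 bases before the downstream Acot11 start and 66 bases before the Acot4 start (chr12:84038129-84038428, plus strand). It occurs in 7.15% of all windows. These matches describe the letters of the windows only.

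The wild-type libraries show where each member was high. Levels are CPM after TMM scaling, a correction for library composition, over all 15 libraries. To compare genes with each other, levels were divided by exonic length in kilobases (kb). Acot13, which codes for the mitochondria-associated thioesterase Them2, had the highest level per length in both depots, with 150 ± 16.9 CPM per kb in wild-type brown tissue (SD, n = 4) and 74.4 ± 3.79 in wild-type inguinal tissue (SD, n = 4). In brown tissue the mitochondrial members Acot9 and Acot2 followed at 31.9 and 23.9 CPM per kb, with overlapping ranges, then Acot7, Acot8 and Acot1 at 7.66, 6.10 and 5.35, neighbours that also overlapped. Below them in brown tissue came Acot11 at 3.10 CPM per kb, ahead of Acot4 at 1.54, Acot3 at 0.825 and Acot12 at 0.376, the last with a range that overlapped that of Acot3. In inguinal tissue Acot9 at 28.4 and Acot7 at 13.8 CPM per kb followed Acot13. Acot11 came next at 6.92 CPM per kb, indistinguishable in range from Acot2 at 6.88, and Acot8, Acot4, Acot1, Acot3 and Acot12 closed the order at 4.61, 1.08, 0.494, 0.126 and 0.0247.

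Between wild-type depots, 7 of the 9 members tested differed, where 61.4% of all 15979 genes tested did. Acot12 did not pass the filter on low counts in this comparison. 5 members were higher in brown tissue and 2 in inguinal tissue, where 30.7% of all genes were called in each direction. Acot1, the cytosolic long-chain thioesterase, showed the widest gap, with 17.8 to 24.7 CPM in brown and 1.15 to 2.56 CPM in inguinal libraries (log2 difference 3.47, SE 0.22, edgeR adjusted p = 2.25e-07). The peroxisomal Acot3 followed with a log2 difference of 2.72 (SE 0.25, edgeR adjusted p = 2.03e-06), then Acot2 with 1.80 (SE 0.39, edgeR adjusted p = 0.00541) and Acot13 with 1.01 (SE 0.08, edgeR adjusted p = 1.15e-06). The peroxisomal Acot8 was higher by 0.41 (edgeR adjusted p = 0.0414) with overlapping libraries, a call that was lost without any one of brown libraries 3 or 4 or inguinal libraries 2, 3 or 4 (edgeR adjusted p 0.0716 to 0.148). Snx21 overlaps 12.3% of the exonic bases of Acot8 on the opposite strand, and the part of its reads in this value was not tested. Acot11 and Acot7 were the members lower in brown tissue, by -1.16 (SE 0.22, edgeR adjusted p = 0.00146) and -0.85 (SE 0.14, edgeR adjusted p = 0.00019), and neither overlapped between depots, as was so for 56.3% of all genes tested. Acot4 (0.53, edgeR adjusted p = 0.0768) and Acot9 (0.17, edgeR adjusted p = 0.0635) did not pass.

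**Figure D1:**
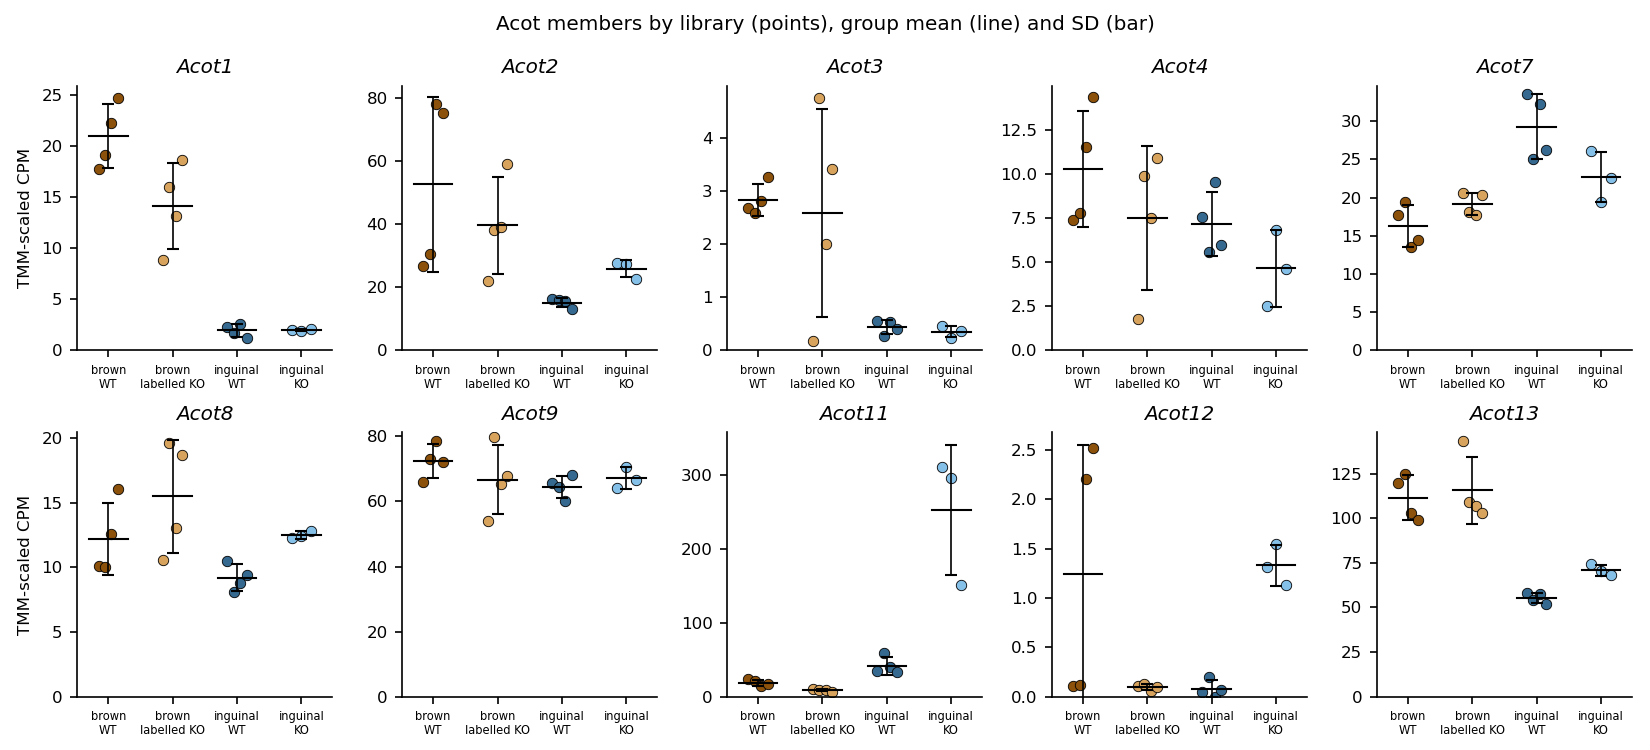
Each panel is 1 member and each point 1 library, with TMM-scaled CPM on a linear axis from 0 against the 4 groups. A line marks the group mean and a bar the SD. Acot11 sits at 150.6 to 309.9 CPM in the inguinal knockout libraries, above every other library, and Acot12 is near 0 except in those 3 libraries and in wild-type brown libraries 3 and 4.

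In inguinal tissue part of the family was higher in the knockout. Of the 10 members tested, 5 rose (Acot2, Acot8, Acot11, Acot12 and Acot13), none fell and 5 did not pass. Over all 15710 genes tested, 28.6% were called, namely 15.3% higher and 13.3% lower. The same 5 members were the ones whose knockout libraries all lay above all wild-type libraries, a pattern shown by 18.3% of all genes tested (36.9% showed no overlap in either direction). The members' median log2 change was 0.22, beside -0.02 over all genes tested. Acot12 passed the filter on low counts through its knockout libraries alone, so its call is not independent of that filter.

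Acot11 had the largest gain per length of the 10 members, from 6.92 to 41.6 CPM per kb. The wild-type inguinal libraries 1 to 4 held 34.8, 59.6, 40.0 and 33.2 CPM, and knockout libraries 2, 3 and 4 held 309.9, 295.5 and 150.6 CPM. All knockout libraries exceeded all wild-type libraries, and library 4 was the lowest of the 3. The fitted log2 change was 2.61 (SE 0.32, 95% interval 1.99 to 3.22), a 6.09-fold rise with an edgeR adjusted p of 0.00122. Fam151a, which overlaps 20.9% of the exonic bases of Acot11 on the opposite strand, had at most 1 count in any library.

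Acot12 was close to the detection limit in wild-type inguinal tissue and was measured in every knockout library. Wild-type libraries 1 to 4 had 2, 7, 0 and 4 reads (0.0519, 0.202, 0 and 0.0718 CPM), and knockout libraries 2, 3 and 4 had 38, 46 and 43 reads (1.31, 1.55 and 1.13 CPM). The 0 in wild-type library 3 leaves room for up to 3 reads. The groups did not overlap. Summed over libraries, 127 reads stood against 13, and after scaling the ratio was 15.7 (95% interval 8.86 to 30.3, for counting error only). An antisense transcript, 4833422C13Rik, overlaps 4.53% of the exonic bases of Acot12 and went the other way, with 96 reads in the wild-type and 28 in the knockout libraries.

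The remaining rises were smaller. Acot2, which acts in the mitochondrial matrix, held 16.1, 15.9, 15.5 and 12.9 CPM in wild-type inguinal libraries 1 to 4 and 27.5, 27.2 and 22.7 CPM in the knockout libraries. The knockout libraries were all above the wild-type ones, and the fitted change in log2 was 0.79 (SE 0.11, edgeR adjusted p = 0.000242). Acot13 stood at 58.1, 54.2, 57.3 and 51.9 CPM in wild type and 74.2, 70.3 and 68.2 CPM in the knockout, and changed by 0.37 (SE 0.08, edgeR adjusted p = 0.00474). For Acot8 the levels were 10.5, 8.12, 8.81 and 9.39 CPM in wild type and 12.3, 12.4 and 12.8 CPM in the knockout (0.45, SE 0.12, edgeR adjusted p = 0.0132). Neither Acot13 nor Acot8 overlapped between groups. Snx21, which overlaps 12.3% of the exonic bases of Acot8 on the opposite strand, had 774 to 7080 counts per library over the series. The part of Snx21 reads in the Acot8 value was not tested. The calls of Acot2, Acot13 and Acot8 were made with the inguinal libraries fitted on their own. In 1 fit with all 4 groups the edgeR adjusted p was 0.189 for Acot2, 0.0534 for Acot13 and 0.171 for Acot8.

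Acot7, a cytosolic thioesterase known mainly from neurons, was at 33.6, 25.1, 32.2 and 26.2 CPM in wild-type inguinal libraries and 26.1, 19.5 and 22.6 CPM in the knockout libraries. Its change of -0.35 (95% interval -0.61 to -0.10) did not pass with edgeR (adjusted p = 0.0549), though it did with DESeq2 (adjusted p = 0.0458), with limma-voom (adjusted p = 0.0369), with no count filter (edgeR adjusted p = 0.022), without wild-type library 2 (edgeR adjusted p = 0.0373) and without knockout library 2 (edgeR adjusted p = 0.0175). Among genes of nerve tissue, Mbp, a myelin protein, measured 129.2 to 161.9 CPM in wild type and 90.1 to 127.9 CPM in the knockout (-0.40, edgeR adjusted p = 0.0184). The neuronal Snap25 was higher in the knockout, at 1.14 to 2.32 CPM against 0.403 to 0.725 CPM (1.75, edgeR adjusted p = 0.00136), Tubb3 was below 1 CPM in both groups (-0.40, edgeR adjusted p = 0.641), and Th had at most 3 reads. Their part in the Acot7 value was not tested.

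Acot4, which hydrolyses dicarboxylic acyl-CoA in peroxisomes, held 7.56, 5.59, 9.58 and 5.98 CPM in wild type and 2.49, 6.83 and 4.62 CPM in the knockout, with overlapping groups (-0.61, 95% interval -1.17 to -0.04, edgeR adjusted p = 0.141). Leaving out single libraries moved it between -0.98 and -0.32, and it passed without knockout library 3 (-0.98, edgeR adjusted p = 0.0301). Acot1 (0.08, interval -0.44 to 0.60, edgeR adjusted p = 0.858), Acot3 (-0.27, interval -1.11 to 0.56, edgeR adjusted p = 0.675) and the mitochondrial Acot9 (0.07, interval -0.09 to 0.23, edgeR adjusted p = 0.581) did not pass either. For Acot9 the interval leaves little room for a change, since knockout libraries of 64.1, 70.7 and 66.6 CPM lay among wild-type libraries of 60.1 to 68.2 CPM or just above them. Acot1 and Acot3 were near 2 and below 1 CPM in this depot, and their intervals are wide.

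**Figure D2:**
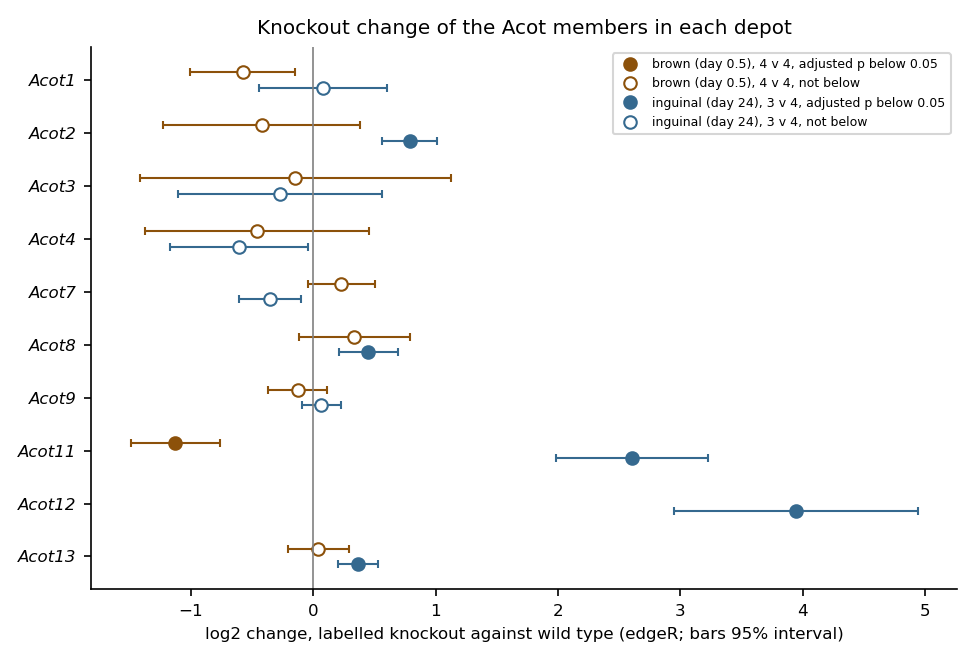
Points are edgeR log2 changes of labelled knockout against wild type for each member, brown tissue in brown and inguinal tissue in blue, with 95% intervals as bars and filled points where the adjusted p was below 0.05. Acot11 lies at -1.13 in brown and 2.61 in inguinal tissue, and Acot12 has no brown point because it did not pass the filter on low counts there.

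In newborn brown tissue the family gave a single call. Acot11 was the 1 member of the 9 tested that passed, and it was lower. Only 0.260% of the 15796 genes tested passed in this comparison (0.184% higher and 0.0760% lower), while 18.5% had an unadjusted p below 0.05. Acot11 measured 23.5, 20.6, 14.3 and 16.7 CPM in wild-type libraries 1 to 4 and 10.7, 8.38, 8.55 and 6.98 CPM in labelled knockout libraries 1 to 4. Every labelled knockout library was below every wild-type library, as in 4.86% of all genes tested (4.88% showed the opposite order, 9.74% either). Acot11 changed by -1.13 in log2 (SE 0.19, 95% interval -1.49 to -0.76, edgeR adjusted p = 0.0496). That p lies just inside the threshold: leaving out any single library other than labelled knockout library 1 took the call away (edgeR adjusted p 0.0994 to 0.171), with changes of -1.23 to -1.001. Without labelled knockout library 1 the call was kept, and the number of genes called in all rose from 41 to 2905. With the library number as a block in the fit, the Acot11 call was lost.

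Acot12 could not be tested in brown tissue under the count filter. Wild-type libraries 1 and 2 had 4 reads each, wild-type libraries 3 and 4 had 77 and 108 reads (2.21 and 2.52 CPM), and the 4 labelled knockout libraries had 4, 4, 2 and 4 reads. Wild-type libraries 3 and 4 stood apart, and wild-type libraries 1 and 2 were level with the labelled knockout. Without the filter the log2 change was -3.66 (SE 1.14, edgeR adjusted p = 0.24), and with all 4 groups in 1 fit it was -3.65 (edgeR adjusted p = 0.0316). Both values rest on the same 2 libraries.

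The Acot2 level in brown tissue split along the same line. It was 26.6, 30.5, 78.0 and 75.1 CPM in wild-type libraries 1 to 4, and 21.8, 38.2, 39.0 and 59.1 CPM in the labelled knockout. Libraries 3 and 4 exceeded every other brown library, and libraries 1 and 2 lay within the labelled knockout range. The change of -0.42 (interval -1.23 to 0.39, edgeR adjusted p = 0.625) did not pass, and without wild-type libraries 3 and 4 together it was 0.47 (edgeR adjusted p = 0.693), an alternative chosen after the values were seen. Ucp1, the uncoupling protein, split in the same way, at 2481, 3247, 6382 and 6779 CPM in wild-type libraries 1 to 4 and 1558 to 3236 CPM in the labelled knockout (-0.94, edgeR adjusted p = 0.22). Acot11 went the opposite way within the wild-type libraries, its lower values being in libraries 3 and 4. Without those libraries its change was -1.35 (edgeR adjusted p = 0.173). In bulk tissue, fewer cells of a type and less RNA per cell cannot be told apart.

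Acot1 held 17.8, 19.1, 22.3 and 24.7 CPM in wild-type brown libraries and 8.81, 16.0, 13.2 and 18.6 CPM in the labelled knockout. Library 4 alone overlapped the wild-type range, and the change of -0.58 (interval -1.003 to -0.15) did not pass (edgeR adjusted p = 0.203). Acot3 ranged from 2.58 to 3.27 CPM in wild type and measured 0.165, 4.75, 2.003 and 3.42 CPM in labelled knockout libraries 1 to 4. Acot4 ranged from 7.40 to 14.4 CPM and measured 1.79, 9.91, 7.50 and 10.9 CPM in the same libraries. For both genes labelled knockout library 1 was far below the others, and neither change passed (Acot3 -0.15, edgeR adjusted p = 0.924, and Acot4 -0.46, edgeR adjusted p = 0.638).

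The hotdog-fold members other than Acot11 and Acot12 gave no call in brown tissue. Acot13 held 98.8 to 124.8 CPM in wild type and 143.4, 109.2, 106.7 and 102.8 CPM in the labelled knockout, with a change of 0.04 (interval -0.21 to 0.30, edgeR adjusted p = 0.884). Acot9 (-0.13, interval -0.37 to 0.12, edgeR adjusted p = 0.623) and Acot7 (0.23, interval -0.04 to 0.50, edgeR adjusted p = 0.399) overlapped between groups as well. Acot8 measured 10.1, 10.1, 12.6 and 16.0 CPM in wild type and 10.6, 19.6, 13.1 and 18.7 CPM in the labelled knockout (0.33, edgeR adjusted p = 0.466). It overlaps Snx21 on the opposite strand over 12.3% of its exonic bases, and Snx21 stood at 56.6, 158.2, 130.1 and 175.3 CPM in those labelled knockout libraries and 57.4 to 82.6 CPM in wild type. Acot8 and Snx21 were thus both lowest in labelled knockout library 1 and highest in libraries 2 and 4, and the part of Snx21 reads in the Acot8 value was not tested.

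The inguinal and brown changes of each member were compared with each other in 1 fit of all 4 groups. The difference passed for 2 of the 10 members, where 9.00% of 16858 genes passed, 4.80% with the higher and 4.20% with the lower change in inguinal tissue. For Acot11 the inguinal change exceeded the brown one by 3.71 in log2 units (SE 0.36, 95% interval 3.01 to 4.41, edgeR adjusted p = 7.01e-05). For Acot12 the difference was 7.58 (SE 1.34, interval 4.96 to 10.2, edgeR adjusted p = 0.00428), and without wild-type brown libraries 3 and 4 it was 4.17 (edgeR adjusted p = 0.0285). Acot12 passed the filter on low counts here only through those 2 libraries and the inguinal knockout ones. Its call is therefore not independent of that filter. For Acot2, which passed in inguinal tissue alone, the difference of 1.18 did not pass (interval 0.20 to 2.17, edgeR adjusted p = 0.155). The same held for Acot13 (0.31, edgeR adjusted p = 0.239) and Acot8 (0.10, interval -0.45 to 0.64, edgeR adjusted p = 0.86), so their changes were not shown to differ between depots. For Acot7 the difference of -0.60 (interval -1.003 to -0.21) gave an edgeR adjusted p of 0.0722, and DESeq2 an adjusted p of 0.0444.

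Acot1 to Acot6 lie next to each other on chromosome 12, and reads can be split between them by the counting. Of the 50-base words in the exons of Acot2, 27.7% also occur in another gene, 24.5% in Acot1. The share was 21.3% for Acot3, 19.2% for Acot1 and 13.4% for Acot4, and 0 for Acot7 and Acot13. The 6 genes were therefore also counted as 1 row. In inguinal tissue their sum was 33.1, 29.1, 34.3 and 26.6 CPM in wild type and 42.7, 45.3 and 38.6 CPM in the knockout. The sum rose by 0.47 in log2 (SE 0.11, edgeR adjusted p = 0.00474) with no overlap, a call that was lost with all 4 groups in 1 fit (0.46, edgeR adjusted p = 0.335). In brown tissue the sum was 64.6, 71.2, 123.1 and 126.5 CPM in wild type and 35.6, 80.7, 72.9 and 103.3 CPM in the labelled knockout (-0.41, SE 0.33, edgeR adjusted p = 0.55). The difference between the depots' changes was 0.85 (edgeR adjusted p = 0.199). Between wild-type depots the sum was higher in brown tissue by 1.65 (SE 0.24, edgeR adjusted p = 0.000519).

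**Figure D3:**
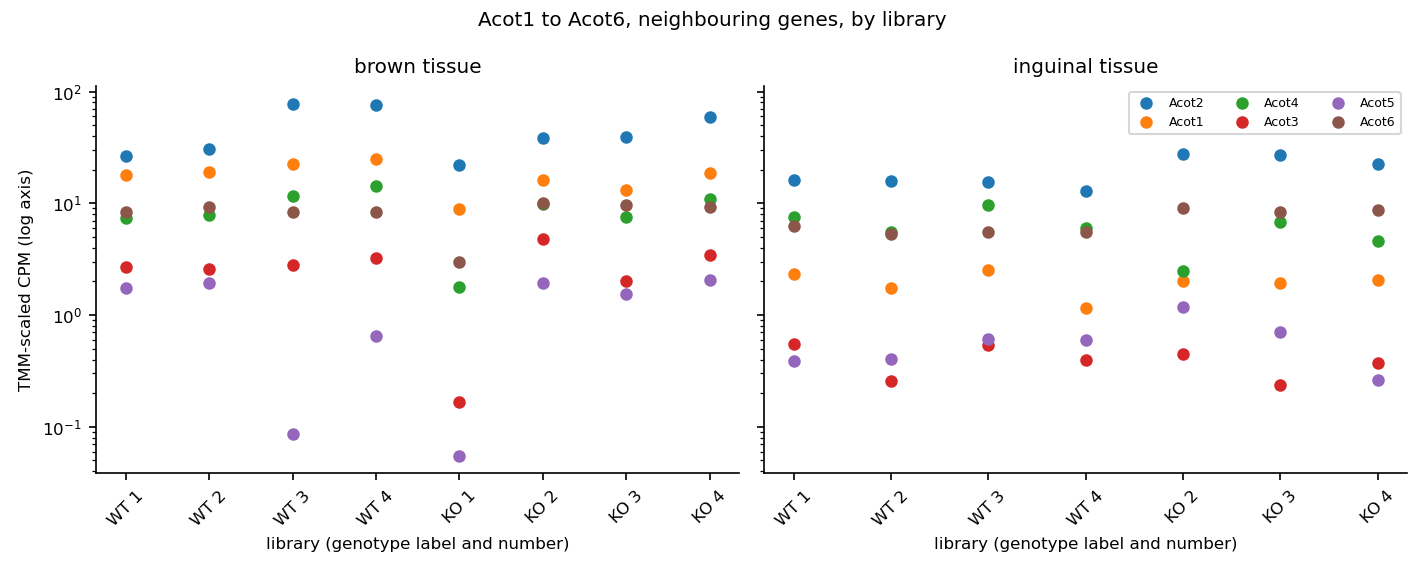
Each colour is 1 gene of the Acot1 to Acot6 cluster and each position on the horizontal axes 1 of the 15 libraries. Brown and inguinal tissue have separate panels, with TMM-scaled CPM on a log axis. The dip of Acot3, Acot4, Acot5 and Acot6 in labelled knockout brown library 1 and the high Acot2 of wild-type brown libraries 3 and 4 can be read from the points of each colour.

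Acot6, the cluster gene outside the 10 members that is best expressed here, rose in inguinal tissue as Acot2 did. It measured 5.27 to 6.23 CPM in wild type and 8.37 to 9.13 CPM in the knockout (0.63, SE 0.13, edgeR adjusted p = 0.00256). Of the 12 other thioesterases listed, 9 could be tested in brown tissue, where none passed and 1 had an unadjusted p below 0.05 (Ppt1, the lysosomal palmitoyl-protein thioesterase, -0.27, edgeR adjusted p = 0.184). In inguinal tissue 7 were tested and 2 rose, beside 15.3% higher among all genes tested. They were Acot6 and the mitochondrial 3-hydroxyisobutyryl-CoA hydrolase Hibch, a valine-degrading enzyme (0.56, SE 0.09, edgeR adjusted p = 0.000536). Hibch was also the 1 other thioesterase whose change differed between the depots (0.56, edgeR adjusted p = 0.0138). Acot5, Them4, Them6, Ppt1 and Ppt2 did not pass in inguinal tissue. Baat and Them7 were tested in brown tissue only, and Them5, Acot10 and Olah in neither.

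Summed over the 10 members and divided by length, the family stood at 137 ± 5.66 CPM per kb in wild-type inguinal tissue (SD, n = 4) and 197 ± 19.4 in the knockout (SD, n = 3), with ranges of 129.6 to 143.0 and 174.8 to 211.4 that did not overlap. In brown tissue the sums were 231 ± 5.83 in wild type (SD, n = 4) and 226 ± 14.4 in the labelled knockout (SD, n = 4), with ranges that overlapped. Acot11 made up 5.07 ± 1.496% of the inguinal wild-type sum (SD, n = 4) and 20.8 ± 5.68% of the knockout sum (SD, n = 3). In the knockout it stood second at 41.6 CPM per kb, with a range that overlapped that of Acot9 at 29.6. In brown tissue its share was 1.35% in wild type and 0.629% in the labelled knockout. Acot13 held the largest share per length in every group, 64.97% and 68.35% in the brown groups and 54.41% and 48.61% in the inguinal ones. The order depends on the division by length. Without it, Acot11 made up 53.6% of the inguinal knockout sum and Acot13 15.8%. In inguinal wild type Acot9 then made up 28.8% and Acot13 24.6%. The undivided inguinal sums averaged 225.1 CPM in wild type and 459.4 CPM in the knockout.

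**Figure D4:**
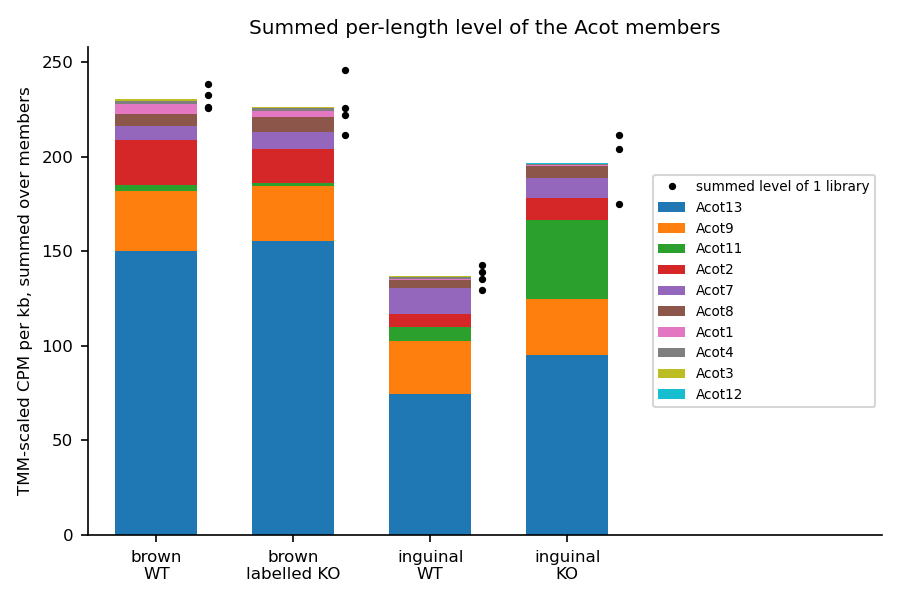
Stacked bars give the group mean of TMM-scaled CPM per kb for each of the 10 members, and black points the summed level of each library. Acot13 is the tallest segment in all 4 groups, and the Acot11 segment of the inguinal knockout reaches 41.6 CPM per kb.

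Genes that supply or consume the substrates of these enzymes were followed as lists. Among 15 genes of CoA synthesis, degradation and transport tested in inguinal tissue, 5 rose and 3 fell, with a median log2 change of 0.13, beside 15.3% higher, 13.3% lower and a median of -0.02 over all genes tested. Pank1, a pantothenate kinase that starts CoA synthesis, rose by 0.90 (edgeR adjusted p = 9.25e-05), and Coasy, which carries out its final steps, by 0.67 (edgeR adjusted p = 0.000225). Ppcs (0.42), Nudt7 (0.40) and Slc25a42 (0.50), the mitochondrial CoA carrier, also rose. Vnn1 (-1.06), Enpp1 (-0.74) and Pank3 (-0.49) fell. In brown tissue none of the 15 passed, though 8 had an unadjusted p below 0.05, as did 18.5% of all genes tested. The smallest edgeR adjusted p there, 0.0696, belonged to Nudt7, the peroxisomal CoA diphosphatase (-0.78), and the groups did not overlap. The depots' changes differed for Nudt7 by 1.16 (SE 0.18, edgeR adjusted p = 0.00157), with Pank2, Ppcs and Coasy also passing.

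Among genes of fatty acid oxidation and targets of the nuclear receptor PPAR-alpha, 19 of 28 tested rose in inguinal tissue and 3 fell, with a median log2 change of 0.53, where 15.3% of all genes were called higher and 13.3% lower. Acadm (0.97, edgeR adjusted p = 2.2e-05) and Acadvl (0.97, edgeR adjusted p = 4.0e-05), the medium-chain and very-long-chain acyl-CoA dehydrogenases, were among them. Fgf21, a hormone, rose by 5.22 and Hadhb, of the trifunctional protein, by 0.84. Cpt1a (-0.62), Angptl4 (-0.76) and Ucp3 (-0.34) fell. In brown tissue none of 29 passed and 10 had an unadjusted p below 0.05 (18.5% of all genes did). Cpt1a, which admits long-chain fatty acids to mitochondria, had the smallest edgeR adjusted p there (-0.83, edgeR adjusted p = 0.0778). The difference between depots passed for 14 of 30 genes, 13 of them higher in inguinal tissue, against 9.00% of all genes, 4.80% higher. The lower one was Cyp4a10.

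Some of the cell type marker lists differed in the inguinal comparison, where 15.3% of all genes tested were called higher and 13.3% lower. The macrophage and B-cell sums overlapped between the groups. Skeletal muscle markers summed to 227.2 to 505.3 CPM in wild type and 104.4 to 116.6 CPM in the knockout (11 of 12 genes fell). Brown adipocyte markers summed to 1587 to 2384 CPM and 3114 to 3965 CPM (6 of 8 genes rose). White adipocyte markers summed to 26830 to 28890 CPM in wild type and 23340 to 25160 CPM in the knockout, with 4 of 10 genes higher and 1 lower. B-cell markers summed to 11.8 to 21.5 CPM and 4.77 to 13.8 CPM (1 of 6 lower), macrophage markers to 298.2 to 413.2 CPM and 295.6 to 368.3 CPM (0 of 6), and endothelial markers to 858.3 to 1043 CPM and 752.7 to 822.9 CPM (3 of 6 lower). Epithelial markers were at most 6.73 CPM in wild type and 0.135 CPM in the knockout. Csn2 was at 0 in every library, and Krt5 was at 0 in the inguinal knockout. Their part in the Acot changes was not tested. In brown tissue no gene of the muscle, macrophage, endothelial or brown adipocyte lists passed, and brown adipocyte markers ran from 6184 to 10390 CPM in wild type and 4723 to 7607 CPM in the labelled knockout.

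Genes whose profile over the 15 libraries was most like that of Acot11 were found by the root mean square difference of log2 levels, each centred on its own mean, among 14617 genes. The nearest were Acox2, a peroxisomal acyl-CoA oxidase, at 0.58, Osgin1 at 0.60, the acyl-CoA synthetase Acsf2 at 0.64, Reep6 at 0.66 and Sbk1 at 0.69. The inguinal knockout changes of these 5 genes were 1.80, 2.67, 1.12, 1.01 and 1.25. In brown tissue Acox2 was not tested, and Osgin1 (-0.0027), Acsf2 (-0.44), Reep6 (-0.84) and Sbk1 (-0.37) did not pass (edgeR adjusted p 0.11 to 0.998), where Acot11 was at -1.13. Nearest to Acot12 were Dhrs9, a retinol dehydrogenase, at 1.04, Npnt at 1.24, Dtx4 at 1.24, the monocarboxylate transporter Slc16a1 at 1.25 and Axin2 at 1.25. The nearest genes were picked for small differences over these same libraries, so their changes are no separate evidence. Acot11 and Acot12 differed from each other by 1.85. The member with the smallest difference from Acot11 was Acot7 at 1.60, though their changes had opposite signs. Acot7 changed by -0.35 in inguinal and 0.23 in brown tissue, and Acot11 by 2.61 and -1.13. These values describe the 15 libraries, whose depots, ages and depths they share.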

How the data were processed

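RNA-seq was measured in 15 libraries made with a stranded mRNA kit, per the labels. The authors deposited unnormalized gene counts. Per the submitters' processing notes the build was mm9 and the tools included featureCounts, Subread, edgeR and TopHat2 2.1.0. Which tool did what and the strand setting are not given in the sources, so reads of overlapping genes on opposite strands may be mixed. Samples were grouped by depot and genotype from their titles, and genes were named through their Ensembl identifiers (32913 of 37991 matched to 1 symbol, all 10 members and 118 of 120 other list entries). Exonic lengths and shared words came from GENCODE annotation of GRCm38, promoters from RefSeq.

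Each comparison was fitted over all genes in R 4.3.3 with edgeR 4.0.16: filterByExpr with a minimum count of 10, TMM scaling, robust quasi-likelihood F-tests, and Benjamini-Hochberg adjusted p below 0.05. SE was derived from the log2 change and the root of F, and 95% intervals use normal quantiles. The fits were tested on simulated counts, drawn independently around 1 mean per gene apart from the set changes. They hold no odd library, no link by replicate number and no depot difference, so recovery in the real libraries may differ. Of genes changed by 1.5 and 2 fold, 13.4% and 46.3% were recovered in brown tissue (15619 genes), 50.7% and 74.6% in inguinal tissue (15497), 2.99% and 35.8% for the depot difference (16573) and 41.8% and 70.1% between wild types (15777). Unchanged genes made up 9.01%, 8.23%, 3.70% and 5.63% of these simulated calls, in the same order. Of these shares, 3.70% alone lay below the threshold of 0.05. Alternatives were DESeq2 size factors, no filter, DESeq2 1.42.0, limma 3.58.1 voom, all 4 groups in 1 fit, the replicate number as a block, and leaving out libraries. The members and lists were chosen with earlier results of these data known. Named besides the members were other thioesterases with at least 10 counts in a library, up to 4 genes of the CoA and fatty acid lists per comparison by smallest p, and the 5 genes most like Acot11 and Acot12. Genes of those lists named beyond this rule (Slc25a42, Vnn1, Enpp1, Pank3, Pank2, Angptl4, Ucp3, Cyp4a10), Snx21 and neighbouring genes were chosen after their values were seen. Part of the neural marker list, and its sum, are not reported here.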

Additional observations from a re-analysis of the deposited data

Results flagged for a closer look

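Between the depots, the change of Acot11 with the labelled knockout differed by 3.71 and that of Acot12 by 7.58 on the log2 scale, each by the test of the difference itself (edgeR adjusted p = 7.01e-05 and 0.00428). Acot11 rose in inguinal tissue. Its lower level in brown tissue passed just inside the threshold (edgeR adjusted p = 0.0496), and that call was lost under 9 of 15 alternatives. The Acot12 value includes wild-type brown libraries 3 and 4, which hold 77 and 108 of that group's 193 reads. Acot12 passed the filter on low counts only through those libraries and the inguinal knockout ones, so its call is not independent of that filter.

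In groups of 4 libraries, 4 single values were flagged out of 57 gene and group checks, where chance flags about 1 in 20. A flag means that the gap to the next value took up most of the group's range. That gap can be small where the other values lie close together, as for Acot6 in wild-type brown tissue. Labelled knockout brown library 1 had 143.4 CPM of Acot13, the next value being 109.2, and 2.97 CPM of Acot6, the next being 9.21. Wild-type brown library 2 had 9.34 CPM of Acot6, the next being 8.43. Wild-type brown library 4 had 9.61 CPM of Them4, the next being 11.7.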

How the results depend on the processing

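Of 578 values of the members under alternatives, 529 kept their direction and side of the threshold, 17 lost the call, 18 gained it and 14 reversed. The inguinal calls and the depot differences of Acot11 and Acot12 held under every alternative run. Acot12 passed the filter on low counts only through the libraries where it was high, and most alternatives keep that filter and those libraries. Its depot difference ran from 4.17 to 8.34 over the alternatives. In brown tissue, 41 genes were called, against 67 with no filter, 1032 with DESeq2, 3127 with limma-voom, 1151 in the 4-group fit (2 members, Acot11 and Acot12) and 2 to 2905 without single libraries (0 to 1 member). In inguinal tissue 4498 genes and 5 members became 2249 and 2 with all 4 groups in 1 fit, where the summed Acot1 to Acot6 change was 0.46 (adjusted p = 0.335), and 3274 to 4719 and 5 to 6 without single libraries. The 1517 genes of the depot difference became 2351 with DESeq2, 3696 with limma-voom and 632 to 3571 (2 to 3 members) without single libraries. Without labelled knockout brown library 1 they were 3571 and without inguinal knockout libraries 2 or 3 they were 818 and 632. Wild-type depots gave 9106 to 9950 genes and 6 to 9 members. Without single libraries, the summed cluster changed by -0.62 to -0.18 in brown and 0.40 to 0.54 in inguinal tissue, by 0.63 to 1.07 for the difference and 1.49 to 1.80 between wild types. The cause was not tested.

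Deviations of same-numbered wild-type and labelled knockout libraries from their group means correlated at -0.04 to 0.17 in brown and -0.10 to 0.05 in inguinal tissue. Differently numbered ones gave -0.15 to 0.08 and -0.10 to 0.14. In brown tissue the pairs numbered 1, 3 and 4 (0.093, 0.17 and 0.099) lay above every differently numbered pair. Skeletal muscle markers summed to 4541, 3723, 2642 and 3056 CPM in wild-type brown libraries 1 to 4. In labelled knockout brown libraries 1 to 4 they summed to 4534, 3377, 2575 and 3023 CPM, the same order by number. Whether the number marks a pairing, a batch or a dissection was not tested, and the main fits leave it out. With the replicate block, brown calls were 7 genes and 0 members (Acot11 adjusted p = 0.0824), the depot difference 859 genes and its summed cluster 0.93 (adjusted p = 0.0459), and the inguinal Acot4 change -0.64 passed (adjusted p = 0.0113), as did the Acot2 difference of 1.13 (adjusted p = 0.0318).

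Reversals were of values that had no call. In brown tissue Acot13 was -0.021 with limma-voom and -0.076 to 0.098 without single libraries, lowest without labelled knockout library 1 and -0.0095 without wild-type library 4. Acot3 was -0.60 to 0.24, highest without labelled knockout library 1, and Acot2 0.47 without wild-type libraries 3 and 4. In inguinal tissue Acot1 was -0.13 without wild-type library 4 to 0.23. The Acot3 difference was 0.41 with the block, 0.31 and 0.02 without labelled knockout brown libraries 2 or 4, and 0.07 without inguinal knockout library 3, its lowest being -0.53. The Acot8 difference was -0.064 without wild-type brown library 4 and -0.04 without labelled knockout brown library 1, its highest being 0.23. The Acot4 difference was 0.07 without labelled knockout brown library 4 and 0.13 without inguinal knockout library 2, its lowest being -0.54. Depth limits Acot12 and the inguinal Acot3, with 0 to 7 reads of Acot12 per wild-type inguinal library.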

Other observations

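Neighbours of the members were listed to see whether a chromosome region moved with them. In wild-type brown libraries 1 to 4, Ssbp2, next to Acot12, held 35.5, 28.3, 39.7 and 40.3 CPM, Zcchc9 on its other side 18.1, 17.6, 21.1 and 19.9 CPM, and Ckmt2 37.6, 35.6, 22.9 and 29.2 CPM. Msh3, the fourth gene on that side, held 33.2, 33.6, 45.2 and 44.9 CPM, so it was higher in libraries 3 and 4, by far less than Acot12. Next to Acot11, Ssbp3 held 46.2 to 50.7 CPM in wild-type and 43.7 to 50.1 CPM in knockout inguinal libraries, and Mrpl37 87.8 to 98.1 and 89.4 to 98.3 CPM.

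Labelled knockout brown library 1 was the lowest of its group for Acot1, Acot2, Acot3, Acot4, Acot5 and Acot6. Acot5 held 0.0551 CPM there and 1.54 to 2.08 CPM in the other 3 libraries. Beside the cluster, Riox1 held 4.32 CPM there and 9.59 to 11.7 CPM in the others, while Dnal1 held 18.0 CPM against 17.3 to 19.8 and Ptgr2 426.9 CPM against 314.2 to 328.8.

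Acot5 went against Acot2 and Acot12 among the wild-type brown libraries, at 1.74, 1.92, 0.086 and 0.653 CPM in libraries 1 to 4. Them5, a mitochondrial thioesterase of the hotdog type, had 110 reads (2.72 CPM) in labelled knockout brown library 4 and at most 0.0718 CPM in every other library. The epithelial markers summed to 68.8 CPM in that library and to 0.541 to 1.10 CPM in the other 3 of its group.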
